A study of Salmo salar with 30 samples.

Results

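On a salmon gene expression array, 60 probes were shifted in 1 direction by every plant diet of a feeding study, 9 of them upwards and 51 downwards relative to a fish meal diet. They were chosen from 14841 non-control probes. A probe's level is the log2 of its processed signal minus the 75th percentile of its array, so a level of 0 is that percentile. A shift is the mean level of the 5 fish on a diet minus the mean level of the 5 control fish. Members had to be well above background on all 30 arrays, which 11484 probes were, to have shifts above 0.4 in all 5 plant diets or below -0.4 in all 5, and to have a soybean meal shift of at most 1 in size. The 9 raised probes are 0.0784% and the 51 lowered probes 0.444% of the 11484. Since every shift against control served in the choice, these shifts and their p-values are given as a description and support nothing by themselves.

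RNA came from the last part of the gut, the distal intestine, of Atlantic salmon (Salmo salar), and each fish had its own array. The 6 diets were corn gluten, corn gluten + P2, soybean meal, soybean meal + P1, soybean meal + P2 and a control high in fish meal. Pea is named beside corn for both corn gluten feeds in the names of the deposited data but not in the labels, and whether they contained it is not known here. P1 was 0.01% butyrate with 1.5% arginine, and P2 was 0.05% nucleotides with 0.01% butyrate and β-glucan at 0.1%. All fish started at 177 g and were fed for 67 days at 11.2 °C in a trial of 18 tanks. Which tank a fish came from is not given in the sources used here. The p-values therefore measure the spread between fish and take no account of tanks.

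The distal intestine of salmon takes up nutrients that escaped the foregut and is a main site of the gut's immune defence. It is known to be sensitive to feed: soybean meal can inflame it, with shortened mucosal folds and an invasion of the lamina propria by immune cells, whereas corn gluten is generally tolerated. The comparison asks which probes respond to the replacement of fish meal whichever plant protein replaced it. Butyrate is a fuel of gut epithelium, arginine a precursor of nitric oxide and polyamines, β-glucan a stimulant of innate immune cells, and nucleotides are building blocks of nucleic acids. The files used here pair no probe with a gene, and 0 of 14841 probe identifiers matched the reference table of the species, so genes and probe sequences are not given and the tissue could not be checked against marker genes. In whole tissue, fewer cells of a type and less RNA per cell cannot be told apart.

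The cap on the soybean meal shift made the lists smaller. Without it, 40 probes were raised and 111 lowered in all 5 plant diets. The 31 raised probes left out by the cap had a median soybean meal shift of 1.75, and the 60 lowered ones a median of -1.71. Around the 0.4 threshold, the smallest shifts of the 3 raised probes just inside were 0.41, 0.41 and 0.41, and those just outside were 0.38, 0.39 and 0.39. For the lowered probes the sizes just inside were 0.40, 0.41 and 0.41, and those just outside were 0.39, 0.39 and 0.39. The same threshold asked of any other diet against the remaining 5, without the cap, gave the following counts. Soybean meal stood apart from all 5 others at 342 probes, of which 179 were lower, soybean meal + P1 at 258 (177 lower) and soybean meal + P2 at 166 (122 lower). Corn gluten + P2 stood apart at 277 probes (52 lower) and corn gluten at 64 (45 lower). Control stood apart at 151 probes, 111 higher and 40 lower, which are the lowered and raised probes of the plant diets before the cap.

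The raised probes averaged 0.77 higher over the plant diets than in control by their median, with means over the 5 diets of 0.52 to 0.98 (folds of 1.43 to 1.97), while the 11484 detected probes had a median of -0.02. The median shift of the 9 was 0.49 with corn gluten, 0.62 with corn gluten + P2, 0.62 with soybean meal, 0.86 with soybean meal + P1 and 0.89 with soybean meal + P2. In single fish, 5 to 9 of the 9 were above their control mean on plant diets, against 2 to 6 of the 9 in control fish. The choice of members fixes this contrast in part.

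Ssa#S31982641 had the largest smallest shift of the raised probes. Its levels were -3.78, -3.97, -4.88, -4.09 and -4.07 in corn gluten fish and -4.94, -3.42, -5.28, -3.80 and -3.77 in corn gluten + P2 fish. They were -5.16, -3.49, -3.80, -3.80 and -4.14 in soybean meal fish, -4.90, -3.22, -3.54, -4.19 and -4.16 in soybean meal + P1 fish, and -4.39, -3.61, -3.47, -4.46 and -4.18 in soybean meal + P2 fish. Control fish had -4.83, -5.23, -5.81, -4.39 and -4.02. The groups overlapped, since control fish 5 was above 13 of the plant-diet fish and 12 of 25 plant-diet fish were above every control fish. The plant diets averaged 0.76 ± 0.30 higher than control (SE, 25 fish against 5), with an adjusted p of 0.0836 in limma. The signal was dim, 39.5 on average, and 1 corn gluten + P2 fish, at -5.28, was below 4 of the 5 control fish. With normexp background correction, which here added an offset of 50 to each signal, the difference turned to -0.10.

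Omy#CA388053 was brighter, with a mean signal of 190.3. Its levels were -0.82, -1.64, -2.93, -1.93 and -2.47 in corn gluten fish and -1.44, -2.19, -2.14, -1.68 and -0.57 in corn gluten + P2 fish. They were -1.98, -2.37, -1.72, -1.93 and -2.33 in soybean meal fish, -1.64, -1.99, -1.90, -1.55 and -1.19 in soybean meal + P1 fish, and -2.27, -1.57, -2.15, -1.29 and -1.93 in soybean meal + P2 fish. Control fish had -2.31, -3.02, -3.07, -2.16 and -2.60. Here 19 of 25 plant-diet fish were above every control fish, and all 5 soybean meal + P1 fish were among them. The plant diets averaged 0.81 ± 0.24 higher than control (SE), with an adjusted p of 0.0233 in limma. The call was lost with normexp (adjusted p = 0.156), under the slide block (adjusted p = 0.278), and without control fish 2, 3 or 5 (adjusted p = 0.0832, 0.0893 and 0.0566), all in limma.

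Of the other 7 raised probes, the 1 with the lowest standard deviation within diets had a mean signal of 3630. Its levels were 1.93 to 2.96 on plant diets and 1.64 to 2.07 in control fish, and 23 of 25 plant-diet fish were above every control fish. In 3 further probes 19 of 25 plant-diet fish were above every control fish. The raised probe with the highest mean shift, 0.98, varied widely among fish of the same plant diet. Its levels ran between -2.05 and 0.41 on plant diets and between -2.08 and -1.46 in control fish, and 8 of the 25 plant-diet fish did not exceed the control fish. Its corn gluten shift of 1.37 was the largest of any raised probe in that diet. A dim raised probe with a mean signal of 47.0 had a similar spread, from -5.38 to -2.54 on plant diets and from -5.10 to -3.32 in control fish. Deviations of these 2 probes from their diet means had a correlation of 0.70 over the 30 fish, the highest of the 36 pairs of raised probes, whose median was 0.13. Another raised probe leaned on control fish 3, at -4.48 against -3.19 to -1.42 in the other control fish: its mean shift was 0.85 with that fish and 0.36 without it.

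The lowered probes averaged 0.69 below control by their median (-0.69), with means over the 5 diets of -1.53 to -0.52 and folds of 1.44 to 2.89. Their median shift was -0.65 with corn gluten, -0.65 with corn gluten + P2, -0.65 with soybean meal, -0.67 with soybean meal + P1 and -0.70 with soybean meal + P2. The threshold and the cap of the rule hold these medians close in part. Of the 51, 5 had a mean shift past 1 in size, and 1 of these rested on a single spot, as described next. In single fish, 36 to 51 of the 51 were below their control mean on plant diets, against 16 to 31 in control fish. The choice of members fixes this contrast in part.

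Ssa#S35481891, with the largest smallest shift of all lowered probes, rested on 1 spot. Its levels were -3.27, -3.54, -3.50, -3.40 and -3.68 in corn gluten fish and -3.77, -3.61, -3.67, -3.50 and -3.39 in corn gluten + P2 fish. They were -3.47, -3.38, -3.60, -3.69 and -3.38 in soybean meal fish, -3.52, -3.43, -3.53, -3.47 and -3.38 in soybean meal + P1 fish, and -3.76, -3.35, -3.76, -3.67 and -3.93 in soybean meal + P2 fish. Control fish had -3.48, 1.62, -3.56, -3.56 and -3.57. The scanner software had marked the spot of control fish 2 as an outlier. With it, the mean shift was -1.03. Without it, the plant diets differed from control by -0.00089 ± 0.083 (SE), with an adjusted p of 0.996 in limma. A further 2 lowered probes rested on a marked spot of the same array: their mean shifts were -0.73 and -0.52 with it, and 0.21 and -0.16 without it. These 3 probes met the rule through that array alone, and 48 of the 51 lowered probes met it with the marked spots set to missing. A spot that was not marked set a further lowered probe, at -0.66 in control fish 2 and at -4.48 to -3.80 in the other control fish: its mean shift was -0.77 with that fish and -0.09 without it.

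Ssa#GRASP209730977 was low in fish of every plant diet. Its levels were -6.18, -5.53, -4.79, -4.06 and -6.52 in corn gluten fish and -6.38, -5.77, -6.47, -5.32 and -6.53 in corn gluten + P2 fish. They were -4.98, -5.66, -6.44, -4.98 and -5.72 in soybean meal fish, -5.01, -5.26, -4.82, -6.14 and -6.16 in soybean meal + P1 fish, and -6.60, -5.22, -5.12, -6.52 and -6.15 in soybean meal + P2 fish. Control fish had -4.55, -4.49, -4.93, -5.12 and -4.51. Of the 25 plant-diet fish, 18 were below every control fish, and corn gluten fish 4, at -4.06, was above them all. The plant diets averaged -0.97 ± 0.31 against control (SE), with an adjusted p of 0.0332 in limma. The call was lost without any 1 of the 5 control fish (adjusted p of 0.0532 to 0.0966), with normexp (adjusted p = 0.0528), with quantile normalization (adjusted p = 0.0548) and under the slide block (adjusted p = 0.201), all in limma. The probe was among the dimmest detected ones, with a mean signal of 16.0.

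In 1 lowered probe 24 of 25 plant-diet fish were below every control fish, the most of any member. Its levels were -4.43 to -3.24 on plant diets, with a median of -3.77, and -3.33 to -3.09 in control fish. Its plant diets averaged -0.57 ± 0.12 against control (SE), with an adjusted p of 0.00167 in limma. The rule chose on this same contrast, so the p-value is a description only. The largest mean shift, -1.53, belonged to a probe that varied widely between fish: it ranged over -6.05 to -0.61 on plant diets and -2.77 to 1.29 in control fish, and its adjusted p in limma was 0.0927. The brightest lowered probe, with a mean signal of 66237, had levels of 4.47 to 7.26 on plant diets and 6.71 to 7.50 in control fish. Its shift was -1.41 with corn gluten + P2 and between -0.85 and -0.52 with the other plant diets.

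The overlap of the plant diets with control was also counted fish by fish. All 25 plant-diet fish lay beyond every control fish for 0 of 9 raised and 0 of 51 lowered probes. Of all detected probes, 0.0435% were above and 0.061% below in that way. At shares this small, lists of this size would hold few or no such probes, so nothing is read from the counts of 0. All 5 corn gluten fish lay beyond every control fish for 1 raised (0.418%) and 6 lowered members (0.479%), and all 5 corn gluten + P2 fish for 1 (0.914%) and 3 (0.993%). The counts were 3 (7.14%) and 9 (12.3%) for soybean meal, 2 (10.9%) and 9 (9.37%) for soybean meal + P1, and 2 (6.02%) and 8 (6.34%) for soybean meal + P2. At least 20 of 25 plant-diet fish did so for 1 of 9 raised probes (1.31% of detected probes) and 10 of 51 lowered ones (2.39%). The median shift over the 9 raised probes was 0.07 to 1.19 in plant-diet fish and -0.22 to 0.20 in control fish, so the groups overlapped. Over the 51 lowered probes it was -1.34 to -0.31 in plant-diet fish and -0.09 to 0.10 in control fish, with no overlap, a separation that the choice of members fixes in part.

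Counts past the test are given against the share of all probes tested, and nothing is read from them, since the contrasts chose the members. In limma, with a Benjamini-Hochberg adjusted p below 0.05 over all 13576 probes tested, the mean of the plant diets was higher than control for 5 of the 9 raised probes (8.07% of all probes) and lower for 22 of the 51 lowered probes (8.57%). The 5 had adjusted p-values of 0.00161 to 0.0233, and the 22 of 0.00167 to 0.0498. Soybean meal passed for 4 raised (12.9%) and 18 lowered probes (17.4%), soybean meal + P1 for 6 (14.8%) and 18 (15.1%), and soybean meal + P2 for 4 (9.0%) and 19 (8.08%). Corn gluten passed for 0 raised (0.0663%) and 0 lowered probes (0.0%), and corn gluten + P2 for 1 (0.0737%) and 0 (0.0295%). With either corn gluten diet the unadjusted limma p was below 0.05 for 28 of the 60 members (6.05% of all probes) without P2 and for 31 of 60 (11.4%) with P2. These comparisons share the control fish.

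The rule bounds the spread among the plant diets in part. The range of a probe's 5 shifts had a median of 0.46 for the raised and 0.43 for the lowered probes, with a highest value of 1.07 and 2.05, against a median of 0.50 for detected probes. The largest shift was more than 2 times the smallest for 4 of 9 raised and 19 of 51 lowered probes. The F test over the 5 plant diets passed for 1 of 9 raised and 2 of 51 lowered probes, against 36.8% of all probes, in lists that varied more between fish of 1 diet than most probes. The raised one was shifted by 0.41 with corn gluten, 0.41 with corn gluten + P2, 0.92 with soybean meal, 1.01 with soybean meal + P1 and 1.098 with soybean meal + P2. It was also the 1 member that differed between soybean meal + P2 and corn gluten + P2 (18.9% of all probes), by 0.69 ± 0.24 (SE), with an adjusted p of 0.0445 in limma. One of the lowered probes was shifted by -0.46 with either corn gluten diet, -0.66 with soybean meal, -1.47 with soybean meal + P1 and -1.06 with soybean meal + P2. The other is 1 of the probes with a marked spot in control fish 2.

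For either package no member passed the test, and few of all probes did, so nothing particular to the members is read from this. P1 added to soybean meal passed for 0 of 60 members (0.0221% of all probes), P2 added to soybean meal for 0 of 60 (1.24%), P2 added to corn gluten for 0 of 60 (0.0%), and soybean meal against corn gluten for 0 of 60 (24.5%). In the same limma fit the unadjusted p was below 0.05 for 2 of 60 members with P1 in soybean meal (10.6% of all probes). Counts were 2 with P2 in soybean meal (22%), 0 with P2 in corn gluten (7.57%) and 3 for soybean meal against corn gluten (36.4%). The rule set every shift past 0.4 in 1 direction and capped that with soybean meal at 1. The rule thus bounds the differences between diets in part. The members also varied more between fish of 1 diet than most probes. Counts below the shares of all probes, soybean meal against corn gluten included, are therefore not read as a property of the members. By direction alone, 7 of 9 raised probes were higher with P1 than with soybean meal by itself, 8 of 9 with P2 in soybean meal and 6 of 9 with P2 in corn gluten. Of the 51 lowered probes, 24 were higher with P1 in soybean meal, 21 with P2 in soybean meal and 22 with P2 in corn gluten. The shares of all detected probes with these directions were not counted. The rule also capped the shift with soybean meal and not those with a package, so nothing is read from these directions. For Omy#CA388053 the difference made by P1 in soybean meal was 0.41 ± 0.32 and that made by P2 in corn gluten 0.35 ± 0.32 (SE), with adjusted p-values of 0.641 and 0.835 in limma.

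The lowered probes were dimmer than the array as a whole. Their median signal was 81.0, at the 29.3rd percentile of detected probes by the median, and 10 of 51 were above the median level. The raised probes had a median signal of 391.8, at the 57.2nd percentile. Both lists varied more between fish of 1 diet than most probes. The standard deviation within diets had a median of 0.57 for the lowered and 0.51 for the raised probes, against 0.26 for detected probes, and 49 of 51 lowered and 8 of 9 raised probes were above the detected median. All 5 raised probes that passed the test had standard deviations of at most 0.51, and all 4 that did not had at least 0.63. Among the lowered probes these overlapped, with up to 0.66 in those that passed and 0.38 upwards in those that did not. The 0.38 belongs to a probe with a marked spot, and another that did not pass, without a marked spot, had 0.50. These standard deviations kept marked spots, which were missing in the test. For probes without a marked spot the test drew its error from this same spread. A split by standard deviation is therefore partly built in. The rule used mean differences and set no bound on the spread between fish.

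The arrays were on 6 slides, each scanned once, and control fish were on 3 of them. On slide 1, with 2 corn gluten + P2 and 2 control fish, 9 of 9 raised probes were higher than control (48.9% of detected probes) and 41 of 51 lowered ones were lower (51.1%). On slide 2, with 2 soybean meal + P2 and 2 control fish, the counts were 9 of 9 (49.7%) and 48 of 51 (50.3%). On slide 6, with 5 plant-diet fish and 1 control fish, they were 7 of 9 (44.2%) and 49 of 51 (55.8%). The median differences within slides 1, 2 and 6 were 0.76, 0.84 and 0.52 for the raised probes and -0.58, -0.70 and -0.57 for the lowered ones. The same fish served in the choice of members, so the directions within slides are fixed by it in part. Nothing is read from their distance to the shares of detected probes. Soybean meal shared no slide with control, so for that diet slide and diet cannot be told apart within a slide. Slide beside diet passed for 0 of 60 members after adjustment (0.0% of all probes), and its unadjusted p was below 0.05 for 0 of 9 raised and 2 of 51 lowered probes (7.53%).

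Part of the lowered list varied together from fish to fish within diets. Deviations from the diet means had correlations above 0.5 in 9.33% of the 1275 pairs of lowered probes and 5.56% of the 36 pairs of raised probes. The share was 3.07% for pairs of every 10th detected probe. Marked spots were kept in these shares. The detected probes were not matched to the lists in their spread between fish, which was larger for both lists. With the marked spots set to missing, correlations above 0.8 joined 20 of the 48 remaining lowered probes into 4 sets, of 10, 6, 2 and 2 probes. These correlations are over the 30 fish and share each fish's array.

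Set 1, with 10 probes, was far below control in a few fish. Its median shift was -0.72, -1.74, -0.31, -0.20 and -1.37 in corn gluten fish, and -2.03, -1.62, -0.21, 0.13 and 0.47 in corn gluten + P2 fish. It was -0.53, -0.39, -0.34, -0.14 and -1.44 in soybean meal fish, -0.37, -0.58, -0.40, -0.80 and -1.78 in soybean meal + P1 fish, and -0.05, -0.23, -0.14, -0.24 and -1.68 in soybean meal + P2 fish. Control fish had -0.23, 0.09, 0.03, 0.12 and -0.02. Below every control fish were 17 of 25 plant-diet fish. Below -1 were 7 of 25 plant-diet fish and 0 of 5 control fish, and 3 of the 7 were on slide 4, 3 on slide 5 and 1 on slide 6, with no control fish on slides 4 and 5.

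Set 1 also shared a place on the array. Of its 10 spots, 9 lay in the corner of rows 161 to 192 and columns 42 to 82, which held 942 of the 11484 detected probes (8.2%). Over the whole array, 51 detected probes, 42 of them outside the set, followed the median of set 1 within diets at a correlation above 0.8, and 47 of them (92.2%) lay in that corner. The corner held 18 of the 51 lowered (35.3%) and 0 of the 9 raised probes. Probes of the corner that were no members were set against probes elsewhere at the same levels. Of the set, 2 probes had mean levels below -4, 7 had -4 to -2 and 1 was above. Below -4, over 172 probes in the corner the median shift was -0.15 with corn gluten, -0.13 with corn gluten + P2, -0.16 with soybean meal, -0.17 with soybean meal + P1 and -0.08 with soybean meal + P2. Over 2032 elsewhere the medians were -0.02, 0.03, -0.05, -0.11 and -0.11 for the same diets. At -4 to -2 the medians were -0.11, -0.05, -0.09, -0.15 and -0.08 over 225 probes in the corner and -0.02, 0.02, -0.05, -0.08 and -0.08 over 2620 elsewhere, for the same diets. On plant diets the median of the corner's probes below -4 ran between -0.64 and 0.37 in single fish. In control fish it ran between -0.18 and 0.13. Elsewhere below -4 the range was -0.23 to 0.30 on plant diets and -0.04 to 0.10 in control fish. At -4 to -2 it was -0.32 to 0.09 and -0.13 to 0.12 in the corner. Elsewhere at that level it was -0.14 to 0.12 and -0.02 to 0.03, for plant diets and control in turn. The corner was drawn after the positions had been seen. When each spot was set against the detected probes within 8 rows and 8 columns on its array, 33 of 51 lowered and 7 of 9 raised probes still met the rule, with median mean shifts of -0.64 and 0.80. These counts are over the whole lists and not over set 1. A local median also need not remove a shift that only some of the nearby spots share. The part of array position in the shift of set 1 was not tested.

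The probes of set 2 were spread over the array. This set had 6 probes, 1 of them in the corner, with signals of 17.2 to 66237 and the brightest lowered probe among them. Of the 34 detected probes that followed its median at a correlation above 0.8, 7 lay in the corner (20.6%), against 8.2% of all detected probes. Its median shift was -2.06 to 0.37 in plant-diet fish and -0.61 to 0.68 in control fish, and 15 of 25 plant-diet fish were below every control fish. Its lowest fish were soybean meal + P2 fish 1 and corn gluten + P2 fish 1, at -2.06 and -1.97.

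Both remaining sets were pairs. The pair called set 3 had a correlation of 0.99 and a wide spread of levels among fish of every diet, control included. The brighter probe of the pair ran between -1.18 and 0.90 on plant diets and between -1.05 and 1.03 in control fish, and 6 of 25 plant-diet fish were below every control fish. Of the control fish, 3 were at 0.50 to 1.03 and 2 at -1.05 and -0.90. The pair called set 4 had a correlation of 0.97 and was steadier. Its median shift was -1.05 to -0.02 in plant-diet fish and -0.47 to 0.26 in control fish, and 16 of 25 plant-diet fish were below every control fish.

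Membership depended on single control fish, which all shifts share. With 1 control fish left out, 4 to 7 of the 9 raised and 32 to 37 of the 51 lowered probes still met the rule. Whichever control fish was left out, 2 raised and 10 lowered ones met it. A member could leave by a shift under 0.4 in size or by a soybean meal shift past the cap of 1. For 1 raised probe the soybean meal shift was 1.04 without control fish 1 and 0.39 without control fish 3. How many members left in either way was not counted. Without control fish 1 or control fish 2, 4 raised probes remained, and without control fish 3 the lowered list counted 67 probes. With control fish left out in turn, 8 to 9 of the 9 were above control in all 5 plant diets and 48 to 51 of the 51 below, counts that cannot be under those of members meeting the rule. With 1 plant-diet fish left out, 5 to 9 and 35 to 51 members met the rule. Whichever of the 30 fish was left out, 1 raised and 4 lowered members met it. With normexp background correction, 2 raised and 21 lowered members met it. With slide as a block, 3 raised and 14 lowered members did, and all 5 shifts kept their direction for 9 raised and 41 lowered members.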

How the data were processed

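Distal intestine of 30 salmon was measured on 1-colour Agilent arrays. Per the labels, column-purified RNA was amplified and Cy3-labelled. Per the file headers, Agilent Feature Extraction 12.0.1.1 quantified the spots, and the deposited processed signal is a linear intensity, background-subtracted within the array and not scaled between arrays. Flags for spots well above background, saturated (0 spots) or outliers (598 spots) come from the same deposited files. The authors' value table holds intensity values, the spot median minus the local background times 1 factor per array. It served as an alternative. The numbers of probes well above background were 12491 to 13376 per array. The 75th percentile of log2 signal was 9.22 to 9.89 on plant-diet arrays and 9.11 to 9.69 on control arrays. Its median was 9.28 in control, 9.51 with corn gluten and 9.41 with corn gluten + P2. With soybean meal it was 9.65, with soybean meal + P1 9.65 and with soybean meal + P2 9.72. Other scalings were quantile normalization, the array median and the 75th percentile of probes detected on all 30 arrays. The median mean shifts were then 0.82, 0.81 and 0.76 for the raised members, against 0.77. For the lowered members they were -0.64, -0.65 and -0.70, against -0.69. All 5 shifts kept their direction for 9 raised and 51 lowered members in each. The part of the scaling in the shifts was not otherwise tested. The number of arrays limits the precision.

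Levels are log2 processed signal minus the array's 75th percentile. Lists and values by fish use all spots, while limma 3.58.1 in R 4.3.3 had outlier spots missing. Its model held 1 mean for each diet over the 30 arrays, on 13577 probes well above background on at least 5 arrays, and called probes at an adjusted p below 0.05. It was tested on simulated data. Named are the 2 raised and 2 lowered probes with the largest smallest shift; other members have no identifier here. Gene and marker lists could not be used, since 0 probes could be named. The members and lists were chosen with earlier results of these data known.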

Additional observations from a re-analysis of the deposited data

Results flagged for a closer look

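Of 36 groups of 5 fish checked for a value far from the rest (gap over range above 0.71), 3 had one. Chance alone gives about 1 in 20 groups, but the rule had used these same values. The number is therefore not set against that rate. Ssa#S35481891 was at 1.62 in control fish 2, against -3.57 to -3.48 in the other control fish. This is the spot marked as an outlier by the scanner software. The probe met the rule through that spot alone, so its gap follows from the choice. Ssa#S31982641 was at -4.88 in corn gluten fish 3, against -4.09 to -3.78 in the other corn gluten fish. The median shift over the lowered probes was -0.32 in soybean meal fish 4, against -0.74 to -0.69 in the other soybean meal fish.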

How the results depend on the processing

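The raised list held 9 probes and 14 with detection on at least 25 arrays, 36 at a threshold of 0.3, 3 at 0.5, 40 without the cap and 14 with slide as a block (chosen after seeing the data). The lowered list held 51 probes and 96 with normexp, 32 each with quantile normalization, the array median and the authors' value table, 107 at 0.3, 15 at 0.5 and 111 without the cap. With normexp, 7 probes were raised, of which 2 were members, and 21 members were among the 96. The 32 lowered with the array median held 31 members. The normexp setting used the spot median and added an offset of 50, which is above the mean signal of the dimmest members. The part of the offset in its results was not tested. The spot mean was not used here. Local centring, also chosen after seeing the data, gave 9 and 37 probes. With 1 fish left out the lists held 7 to 19 and 35 to 67 probes, and past 1.5 times the 9 raised were those without control fish 1, 2, 3 or 4 or without corn gluten fish 3 (15).

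Probes called numbered 2260 for the plant mean minus control, 1467 with slide as a block and 1245 to 2616 with 1 fish left out, lowest without control fish 4. For corn gluten minus control there were 9, 5 with normexp, 3 with slide as a block and 7 to 12 with 1 fish left out. For corn gluten + P2 minus control there were 14, 6 with normexp, 2 with slide as a block and 3 to 19 with 1 fish left out, lowest without corn gluten + P2 fish 1. Soybean meal minus control had 4107, 2227 with normexp and 2548 with slide as a block, and soybean meal + P1 minus control had 4054 and 2629 with that block. The F test among plant diets had 4995 and 2927 with normexp, and soybean meal minus corn gluten had 3325, 1839 with normexp and 1819 with slide as a block. P1 in soybean meal had 3, 1 with the authors' table, 0 without soybean meal fish 5 and 27 without soybean meal fish 4. P2 in soybean meal had 168, 2 with normexp, 10 with the authors' table, 2 with slide as a block, 259 with trend and robust variances, 3 without soybean meal fish 1 and 459 without soybean meal + P2 fish 5. P2 in corn gluten had 0, and 1 without corn gluten + P2 fish 4. Fish numbers as a replicate block gave 2312 for the plant mean and changed no count by over 1.5 times. The numbers showed little pairing of the fish: same-numbered fish had a mean correlation of 0.023, against -0.0058 for fish of different numbers. Of the 30 fish, 8 correlated best with a fish of their own number, and how many would do so by chance was not counted.

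For the named probes the plant mean minus control reversed for Ssa#S31982641 with normexp (-0.10). It reversed for Ssa#S35481891, at -0.00089 in the fit without the marked spot, with quantile normalization (0.0329), the array median (0.0362) and slide as a block (0.0564), and ran between -0.0101 and 0.0198 with 1 control fish left out, reversed without control fish 1. Of the other values of the named probes, 13 kept their direction and no longer passed the test. The causes of these changes were not tested. With normexp the median mean shift was 0.48 for the raised and -0.54 for the lowered members, against 0.77 and -0.69 with the processed signal.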
